A study of Mus musculus with 6 samples.

Results

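The genes described here encode AP-1 and immediate early factors of the mouse heart: Fos, Fosb, Fosl1, Fosl2, Jun, Junb, Jund, Egr1, Atf3 and Ier2. They were chosen by symbol, as every probe set annotated to exactly 1 of these names, which gave 10 of 18193 genes and 14 of 45101 probe sets. Fosl1, Fosl2, Jun and Jund had 2 probe sets each and the other genes had 1. The probe set with the highest mean log2 intensity over all arrays stood for its gene. Of the 10 genes, 7 had a mean above the filter level, set at 6.30 log2 units (intensity 78.9), the middle of the mean values of the probe sets that are not array controls. Fosb, Fosl1 and Junb lay under it.

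Whole hearts came from FOG-2R3K5A mice (called mutant from here on) and from wild-type (WT) siblings, all at embryonic day 16.5, with strain background C57/B6 and 129 S6 mixed, with 3 biological replicates and 1 array each. The allele changes FOG-2, the product of Zfpm2 and a cofactor of GATA factors, so that it no longer binds the NuRD chromatin remodelling complex. The parents were heterozygous, and the labels give neither the zygosity of the mutants nor whether a replicate was 1 heart or several. No drug, transgene or Cre is named for either genotype, and p-values measure the spread between these 6 samples.

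AP-1 is a dimer of basic leucine zipper proteins in which a Jun protein pairs with itself, with a Fos protein or with a relative such as Atf3. Immediate early genes are transcribed within minutes of a stimulus without new protein synthesis, through factors such as SRF and CREB that already sit on their promoters. In the heart they are known to respond to stretch, ischaemia, growth factors and handling of the tissue. Their level at the moment of freezing can therefore carry the dissection as well as the state of the organ, and it is given here array by array.

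The windows that follow are RefSeq's promoter sequences of assembly GRCm38.p6, from 250 bases before to 50 after an annotated gene start, 5′ to 3′ on the transcribed strand. Of the 10 genes, 7 had one. Fosl2 is shown because it was the 1 gene of the set that passed the test, and Fos and Jun because they are the prototypes of the 2 families whose proteins pair. Capitals mark matches, on either strand, to 5 motifs: TGANTCA (AP-1 site), TGACGTCA (cAMP response element) with its core TGACG, TGACATCA (the variant site known from the Jun promoter), AGATAA, which is a site for GATA factors and was also searched as TGATAA, and the CArG box bound by SRF. The core lies within the full cAMP response element, so each full match also counts as a core match. The windows lie at chr5:32136222-32136521 on the plus strand for Fosl2, chr12:85473640-85473939 on the plus strand for Fos and chr4:95052173-95052472 on the minus strand for Jun.
Fosl2: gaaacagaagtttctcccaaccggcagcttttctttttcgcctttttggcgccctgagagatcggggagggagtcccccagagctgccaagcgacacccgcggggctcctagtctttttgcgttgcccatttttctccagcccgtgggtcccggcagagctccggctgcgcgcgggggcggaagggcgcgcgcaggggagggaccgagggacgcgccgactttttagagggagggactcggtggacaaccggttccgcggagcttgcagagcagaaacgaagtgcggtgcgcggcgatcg
Fos: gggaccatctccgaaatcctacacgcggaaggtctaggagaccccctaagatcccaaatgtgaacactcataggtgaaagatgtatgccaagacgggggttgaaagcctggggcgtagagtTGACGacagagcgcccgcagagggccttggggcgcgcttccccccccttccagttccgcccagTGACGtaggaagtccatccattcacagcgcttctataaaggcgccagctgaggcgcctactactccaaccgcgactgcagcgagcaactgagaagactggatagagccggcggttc
Jun: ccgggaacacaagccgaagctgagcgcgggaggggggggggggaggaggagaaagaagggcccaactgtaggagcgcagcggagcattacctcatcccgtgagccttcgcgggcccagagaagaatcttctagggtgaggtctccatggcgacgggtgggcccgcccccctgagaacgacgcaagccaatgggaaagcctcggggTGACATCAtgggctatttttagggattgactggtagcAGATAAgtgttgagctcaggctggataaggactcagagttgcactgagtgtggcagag

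The Fosl2 window held 0 of these motifs. Fos had the TGACG core at 129 and 66 bases before the start. Jun had TGACATCA at 45 bases and AGATAA at 8 bases before it. Among the windows not printed, the TGACG core was also present for Fosb, Junb and, on the opposite strand, Atf3. Atf3 had TGATAA as well, and Jund had none. Among all 32851 windows of 300 bases, 20.8% held the TGACG core, 3.62% TGACATCA, 18.6% a GATA site, 7.81% an AP-1 site, 1.79% the full cAMP response element and 1.63% a CArG box. These matches describe letters in the windows and nothing more, and bases outside the windows were not searched for any motif.

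Differences are mutant minus WT on the log2 scale, tested with limma over all 11113 genes above the filter level, with Benjamini-Hochberg adjusted p and a call at an adjusted p under 0.05. Of the 7 tested factors 1 was called, Fosl2, higher in mutants. Over all tested genes 1.76% were called, 1.39% higher and 0.369% lower. At an unadjusted p under 0.05 there were 2 of the 7, Fosl2 and Egr1, where 14.7% of all genes passed. The genotypes did not overlap for 2 of the 7, Fosl2 and Fos, where 21.2% of all genes did not overlap. The median difference was 0.05 over the 7 factors and -0.01 over all genes, and 4 of the 7 differences were positive and 3 negative. With 7 genes, 1 call is a single observation and sets no rate for the family.

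**Figure D1:**
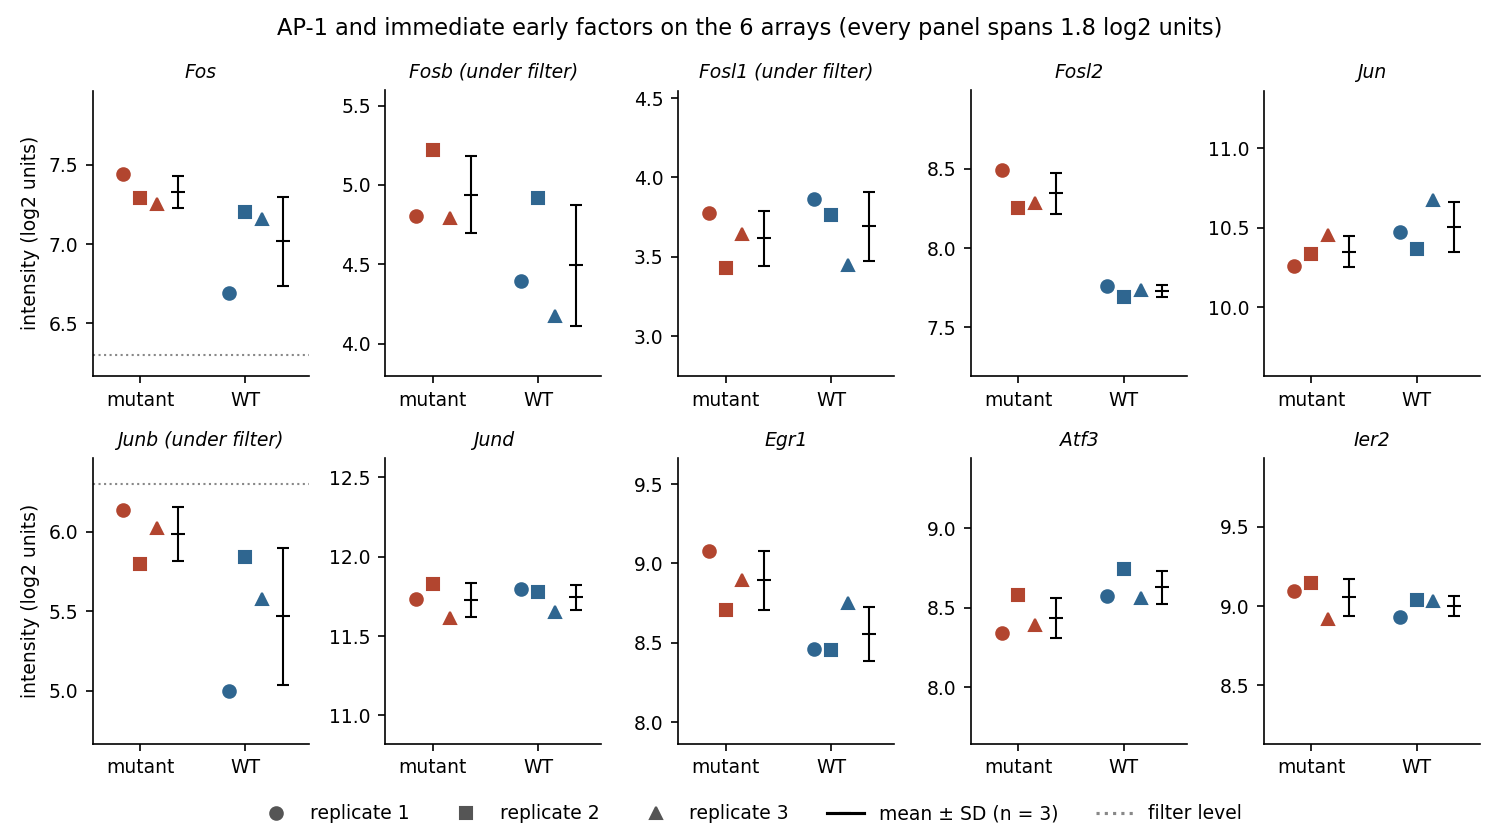
Log2 intensity of the main probe set of each of the 10 genes on every array, mutants left and WT right, with symbols for the replicate number and bars for the mean ± SD of 3 arrays; each panel spans 1.8 log2 units, and the dotted line is the filter level. Fosl2 shows the widest gap between genotypes, with mutants at 8.25 to 8.50 and WT at 7.69 to 7.76; Fosb, Fosl1 and Junb lie under the filter level on every array.

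Fos encodes the prototype Fos protein, which has no homodimer of its own and binds DNA with a Jun partner. Fos read 7.44, 7.29 and 7.25 log2 units in mutant replicates 1, 2 and 3 and 6.69, 7.20 and 7.16 in WT replicates 1, 2 and 3. All mutants were above all WT arrays, but the gap between the lowest mutant and the highest WT array was small beside the distance of WT replicate 1 from the other two. Mutants averaged 7.33 ± 0.10 and WT 7.02 ± 0.28 (SD, n = 3 each). The difference of 0.31 (SE 0.16, 95% interval -0.04 to 0.66) did not pass (limma adjusted p = 0.391), and it was 0.15 without WT replicate 1 (adjusted p = 0.508).

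WT replicate 1 was the lowest of all arrays for Fos and for Junb. The summed intensity of 5 erythroid markers was 7396 on that array, against 2066 to 3861 in mutants and 1900 and 2354 on WT replicates 3 and 2. Of these markers 3 were above the filter, and Hba-a1 and Klf1 were under it on every array. The sum was carried by the embryonic globin gene Hbb-y, which read 10.63, 11.37 and 9.33 in mutants and 12.59, 10.19 and 9.47 in WT. Alas2, an enzyme of haem synthesis, was not high on WT replicate 1, with 10.48, 9.91 and 10.10 in mutants and 9.85, 10.001 and 9.84 in WT. Slc4a1, the red cell anion exchanger, read 8.17, 7.87 and 8.26 in mutants and 8.28, 7.15 and 7.97 in WT, so that WT replicate 1 was level with the mutants. The part of blood content in these values was not tested.

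Fosl2 encodes Fra-2, a Fos relative without the strong activation domain of Fos. Its main probe set, 1437247_at, read 8.50, 8.25 and 8.29 log2 units in mutants, or intensities of 361, 305 and 312. WT arrays read 7.76, 7.69 and 7.74, or intensities of 217, 207 and 213. The genotypes did not overlap, and the WT arrays were close together. The mean was 8.34 ± 0.13 in mutants and 7.73 ± 0.04 in WT (SD, n = 3 each), a rise of 0.62 (SE 0.10, 1.53-fold, 95% interval 0.38 to 0.85, limma adjusted p = 0.0238). Only 1.83% of tested genes differed by more in either direction.

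The other Fosl2 probe set, 1422931_at, lay under the filter level on 6 of 6 arrays and went the opposite way. It read 5.41, 5.06 and 5.49 in mutants and 5.51, 5.97 and 5.66 in WT, so that again the genotypes did not overlap, with mutants lower, where 16.4% of all probe sets did not overlap in either direction. Its difference was -0.39 (SE 0.20, 95% interval -0.85 to 0.07), which did not pass in the fit of all 45037 probe sets (adjusted p = 0.522). In that fit the main probe set kept its difference but was not called (adjusted p = 0.0827), where 0.118% of all probe sets were called. The mean of both probe sets gave 0.11 (adjusted p = 0.692). Which transcripts of the gene each probe set reads is not given in the sources used here.

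The Fosl2 call was lost when any 1 of mutant replicates 1, 2 and 3 or WT replicates 2 and 3 was left out, with adjusted p = 0.0544 to 0.168 in these 5 fits and differences of 0.54 to 0.66. Without WT replicate 1 it was kept (adjusted p = 0.0264).

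**Figure D2:**
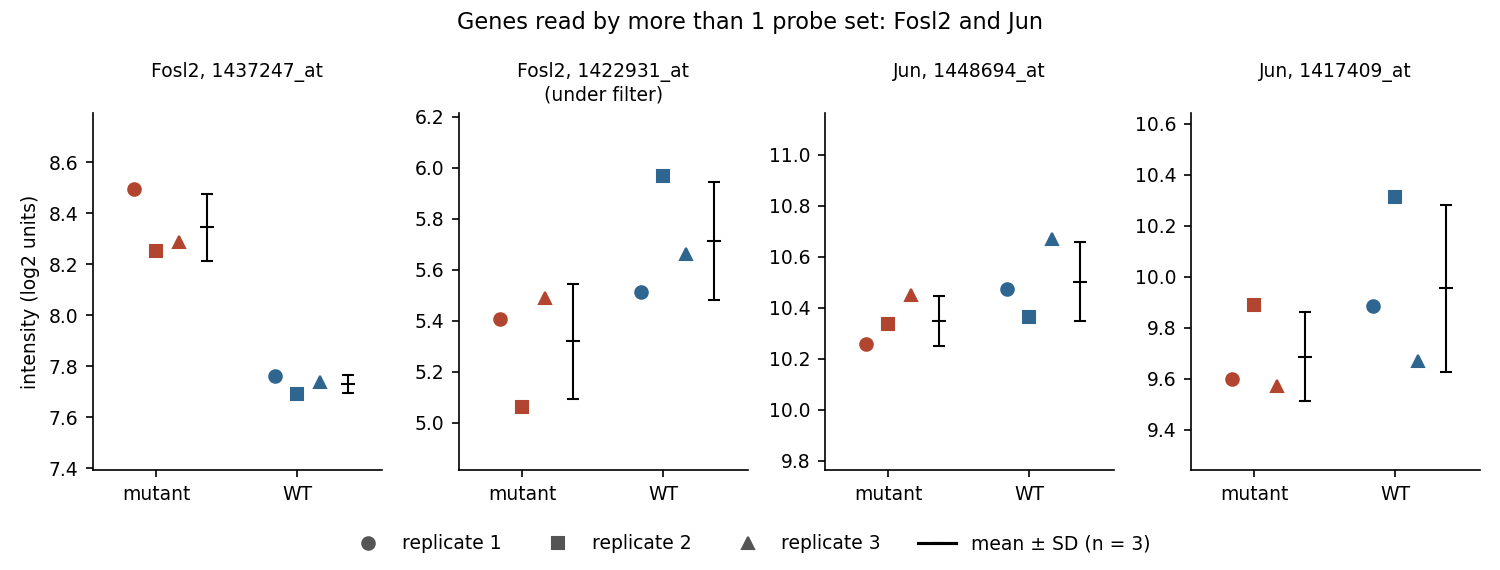
Log2 intensity on every array for both probe sets of Fosl2 and of Jun, mutants left and WT right, with the mean ± SD of 3 arrays beside the points; each panel spans 1.4 log2 units. For Fosl2 the mutants lie above WT on 1437247_at and below WT on 1422931_at, which is under the filter level; for Jun both means are lower in mutants and the genotypes overlap.

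Fosb and Fosl1 encode the remaining Fos proteins, FosB and Fra-1. Fosb read 4.80, 5.22 and 4.79 in mutants and 4.39, 4.92 and 4.17 in WT, and the genotypes overlapped. Its difference of 0.44 (SE 0.26) had an adjusted p of 0.582 over all probe sets. The brighter Fosl1 probe set read 3.78, 3.43 and 3.64 in mutants and 3.87, 3.76 and 3.45 in WT, intensities of 10.8 to 14.6 on the 6 arrays. The dimmer one was at 1.82 to 2.95 in mutants and 1.56 to 2.35 in WT, and their differences had opposite signs (-0.08 and 0.56). At this brightness the arrays give no usable fold for either gene.

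Jun encodes c-Jun, the family's prototype and the partner with the widest choice of dimers. Its main probe set, 1448694_at, read 10.26, 10.34 and 10.45 in mutants and 10.47, 10.36 and 10.67 in WT. Mutants were lower on average, but mutant replicate 3 lay above WT replicate 2. The difference was -0.15 (SE 0.09, 95% interval -0.36 to 0.05, limma adjusted p = 0.467), and -0.07 without WT replicate 3 (adjusted p = 0.756). The other probe set, 1417409_at, also above the filter, read 9.60, 9.89 and 9.57 in mutants and 9.89, 10.31 and 9.67 in WT, a difference of -0.27 (SE 0.17, adjusted p = 0.606 over all probe sets). The order of the arrays was not shared: WT replicate 3 was the highest WT array on the main probe set and the lowest on the other.

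Junb encodes a Jun protein that often restrains c-Jun. It read 6.14, 5.80 and 6.03 in mutants and 5.00, 5.84 and 5.58 in WT, under the filter level on 6 of 6 arrays. The genotypes overlapped, since WT replicate 2 was above mutant replicate 2. Its difference of 0.52 (SE 0.24, 95% interval -0.04 to 1.08) had an adjusted p of 0.496 over all probe sets.

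Jund encodes the Jun protein that most resting cells make. It read 11.73, 11.83 and 11.62 in mutants and 11.80, 11.78 and 11.65 in WT. The arrays interleaved, and the difference was -0.018 (SE 0.068, 95% interval -0.17 to 0.14, limma adjusted p = 0.928). Its sign turned in 4 of 15 other settings, among them median centring (0.024), so no direction is given for Jund. The other Jund probe set lay under the filter at 3.45 to 4.20 in mutants and 3.60 to 4.01 in WT.

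Atf3 encodes a stress-induced relative that represses many promoters as a homodimer. It read 8.34, 8.58 and 8.39 in mutants and 8.58, 8.75 and 8.56 in WT. Mutant replicate 2 was level with the lower WT arrays, so the genotypes overlapped. The difference was -0.19 (SE 0.10, 95% interval -0.42 to 0.04, limma adjusted p = 0.426).

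Egr1 encodes a zinc finger factor that is switched on by the same SRF-dependent signals as Fos. It read 9.08, 8.71 and 8.90 in mutants and 8.46, 8.45 and 8.75 in WT. WT replicate 3 was above mutant replicate 2, which made the genotypes overlap. The mean was 8.89 ± 0.19 in mutants and 8.55 ± 0.17 in WT (SD, n = 3 each), a difference of 0.34 (SE 0.13, 95% interval 0.06 to 0.62) that did not pass over all genes (limma unadjusted p = 0.0239, adjusted p = 0.250).

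Ier2 encodes a small nuclear protein of the immediate early response. It read 9.10, 9.14 and 8.92 in mutants and 8.93, 9.04 and 9.03 in WT. Mutant replicate 3 was the lowest array, and the difference was 0.05 (SE 0.09, 95% interval -0.15 to 0.26, limma adjusted p = 0.819).

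**Figure D3:**
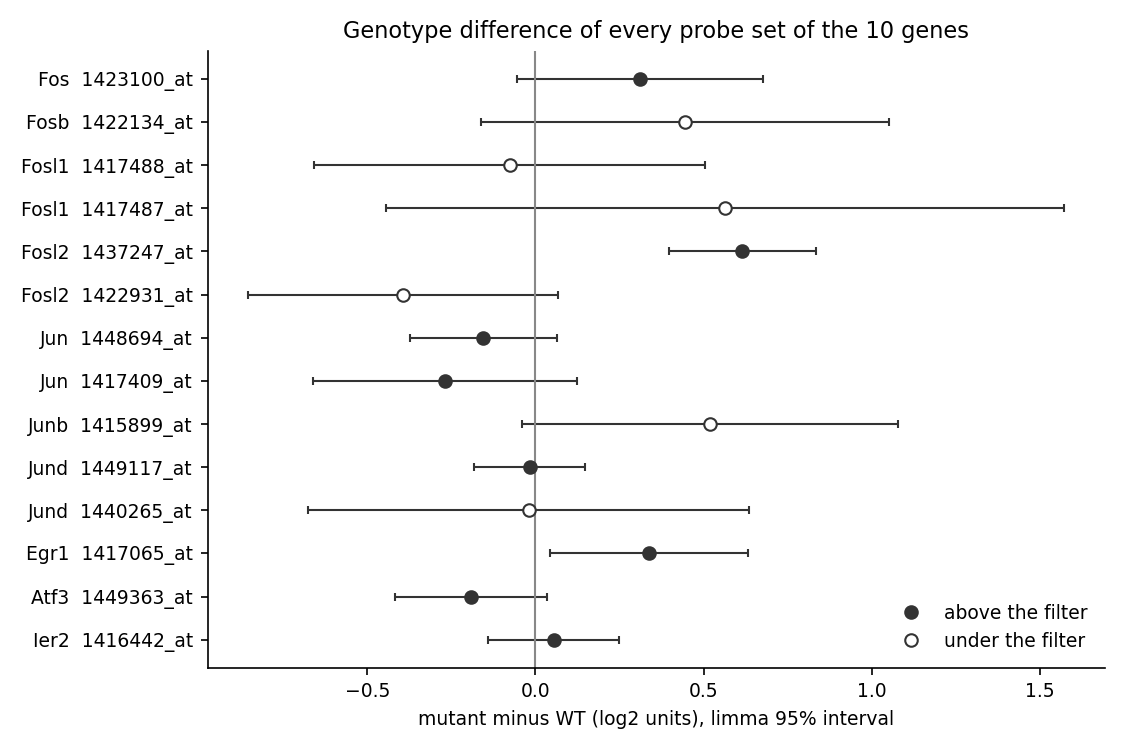
Difference between mutants and WT for each of the 14 probe sets of the 10 genes (x axis, log2 units; bars are limma's 95% interval in the fit of all probe sets), filled where the probe set is above the filter level. The intervals of Fosl2 1437247_at and Egr1 lie above 0 and the other 12 cross it; intervals are not adjusted for the number of probe sets.

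The spread between arrays of 1 genotype was measured for each tested factor as the pooled SD on the log2 scale. It was 0.21 for Fos, 0.18 for Egr1, 0.13 for Jun, 0.115 for Atf3, 0.10 for Fosl2 and 0.09 for both Jund and Ier2. Over all 11113 genes the median was 0.125, and the factors stood between the 30.8th percentile (Jund) and the 82.8th (Fos), 3 of 7 above the middle. From the lowest to the highest of the 6 arrays, the widest range was that of Fosl2 (0.80 log2 units, 1.75-fold) and the narrowest that of Jund (0.21, 1.16-fold). No array was high for the whole set: mutant replicate 1 was the highest array for Fos, Fosl2 and Egr1 and the lowest for Jun and Atf3.

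Deviations from the genotype mean were compared between the 7 factors over the 6 arrays, which share labelling and scaling. Of 21 pairs, 11 had a positive and 10 a negative Pearson correlation, with a median of 0.00 and a range of -0.78 (Egr1 with Atf3) to 0.68 (Fosl2 with Egr1). Fos and Egr1 had 0.45, Fos and Fosl2 0.11, and Jun and Jund -0.72. These are descriptions of 6 arrays without a test.

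**Figure D4:**
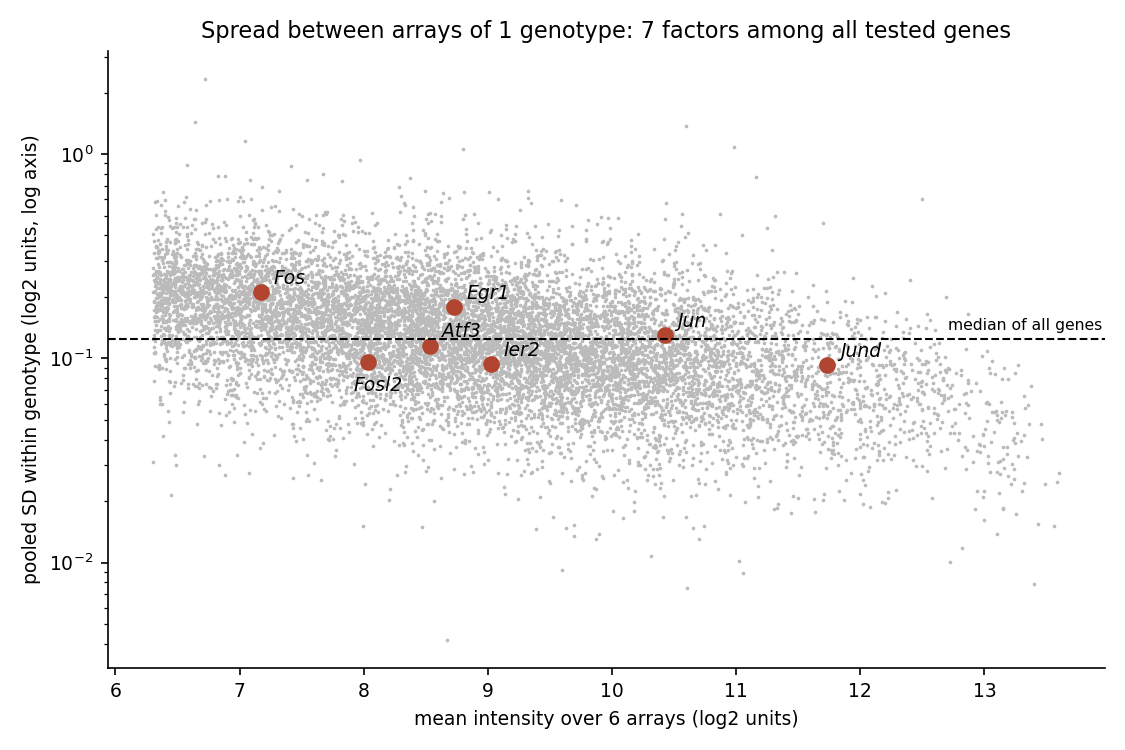
Pooled SD within genotype (y axis, log2 units on a log axis) against the mean log2 intensity over 6 arrays (x axis) for every tested gene in grey, with the 7 tested factors in red and the median SD of all genes as a dashed line. The 7 factors lie within the cloud, 3 above the dashed line and 4 below it.

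The likeness of other genes was measured as Pearson's correlation of log2 values over the 6 arrays, genotype difference included. For Fosl2 the 5 most alike were Lmod3 (0.996), Gabarapl1 (0.996), Lix1 (0.995), Krt222 (0.995) and Ghr (0.992), and 394 of 11106 other tested genes had more than 0.9. Lmod3, a leiomodin of muscle thin filaments, read 10.31, 10.20 and 10.21 in mutants and 9.82, 9.80 and 9.81 in WT. Lmod3 and Gabarapl1 were themselves called higher in mutants, by 0.43 and 0.39 (limma adjusted p = 0.0207 and 0.0338). Picking genes by their correlation with Fosl2 brings this direction with it, so such calls are no separate result. Lix1 and Krt222 had WT means under the filter level and entered the test through the mutants, in which they were at least 1.42-fold and 1.45-fold higher counted from that level. Both were called as well (limma adjusted p = 0.0224 and 0.0159). Ghr, the growth hormone receptor, was not called (0.14, adjusted p = 0.294). For Fos the 5 most alike were Mroh1, Acbd4, Smpd3, Pcf11 and Morn2 (0.986 to 0.991), 113 genes had more than 0.9, and 0 of these 5 were called by limma (adjusted p = 0.262 to 0.703). At an unadjusted p under 0.05 there was 1, Smpd3, whose WT mean lay under the filter level, so that it entered the test through the mutants. All 5 were lowest on WT replicate 1, as Fos was, a likeness that picking them by their correlation with Fos brings with it.

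Other immediate early genes were read from a list of 33, of which 26 were tested. Of these, 1 was called, Cebpd, higher in mutants, where 1.39% of all genes were called higher. Differences were positive for 12 and negative for 14, with a median of -0.03. At an unadjusted p under 0.05 there were 8 of the 26, where 14.7% of all genes passed. The genotypes did not overlap for 9, 7 with mutants higher and 2 with mutants lower, where 11.5% and 9.76% of all genes did so in these directions. Cebpd, a C/EBP factor induced by cytokines, read 8.92, 8.75 and 9.03 in mutants and 8.39, 8.45 and 8.41 in WT, a rise of 0.48 (SE 0.10, limma adjusted p = 0.0467). The call was lost in 11 of 15 other settings, in each of the 6 fits without 1 array among them (adjusted p = 0.0359 to 0.289 over all 15). Ccn2, a matricellular growth factor once called Ctgf, had 0.29 (SE 0.06, adjusted p = 0.0572).

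Further genes of that list were picked after their values were seen. Egr2, a paralogue of Egr1, had the largest difference, with 6.76, 6.85 and 6.89 in mutants and 5.99, 5.72 and 6.35 in WT, whose mean is under the filter level. Egr2 thus entered the test through the mutants, and it is among the 8 and the 7 genes counted above. Counted from that level it was at least 1.44-fold higher in mutants, and it did not pass (limma adjusted p = 0.0605). Socs3, a feedback inhibitor of cytokine signalling, had 0.51, Klf4 0.38 and Klf10 0.30, with adjusted p = 0.164 to 0.218. Ier5 and Gadd45b, the 2 genes lower in mutants without overlap, had -0.19 and -0.17 (limma adjusted p = 0.272 and 0.484). Dusp1, Btg2, Ccn1 and Nr4a1, which are classic early response genes, had -0.03, -0.04, -0.04 and -0.10, and their genotypes overlapped. Rhob read 10.22, 10.24 and 10.31 in mutants and 10.23, 11.38 and 10.18 in WT, so WT replicate 2 stood alone.

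**Figure D5:**
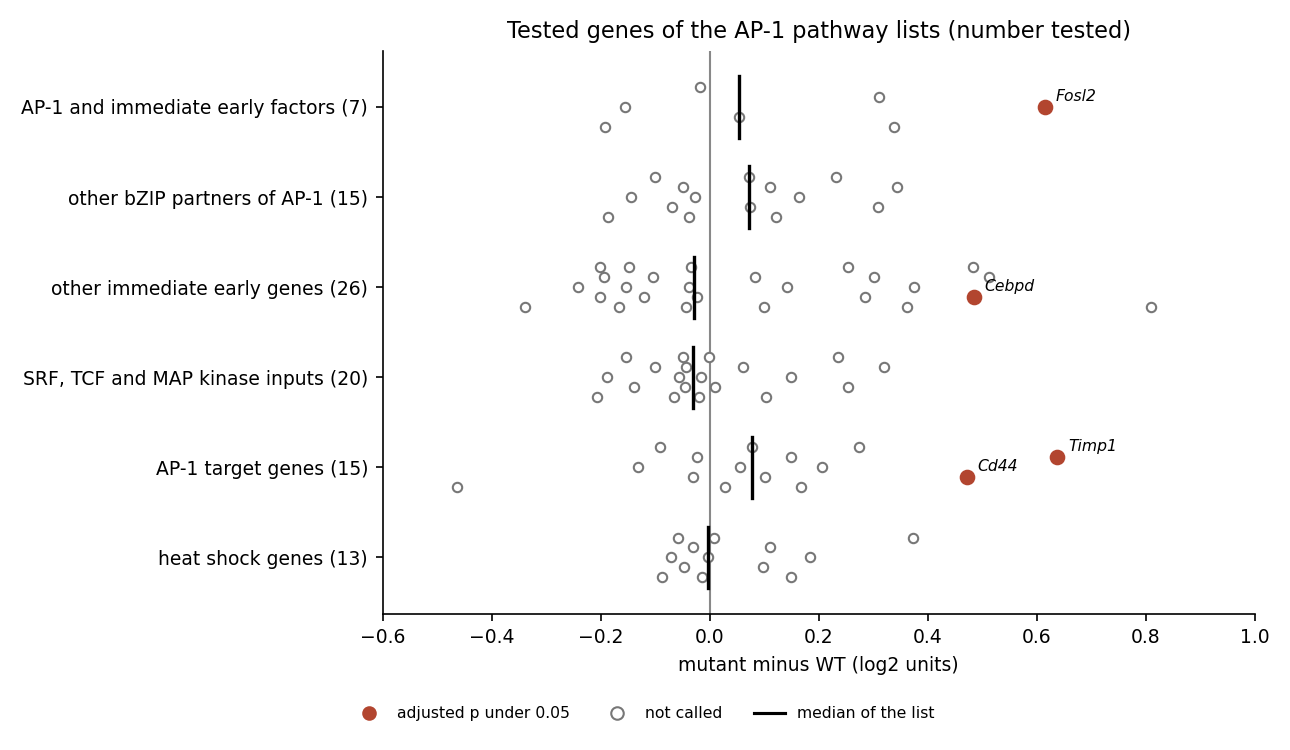
Difference between mutants and WT (x axis, log2 units) for every tested gene of the AP-1 and immediate early factors and of 5 related lists, with the number tested in brackets, the list's median as a black line and called genes filled and named. Called genes are Fosl2, Cebpd, Timp1 and Cd44, and the 6 medians lie between -0.03 and 0.08.

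Other basic leucine zipper proteins, relatives of the AP-1 members, gave 15 tested genes of 22 listed. Their differences were positive for 8 and negative for 7, with a median of 0.07. Limma called 0 of them, where 1.76% of all genes were called, and 3 had an unadjusted p under 0.05, where 14.7% did. Atf6, a sensor of unfolded protein in the endoplasmic reticulum, had 0.34 (SE 0.09, adjusted p = 0.0968). Atf2, a Jun partner activated by stress kinases, had -0.19 (SE 0.06, adjusted p = 0.209).

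The kinases, SRF, its cofactors and the feedback inhibitors that lead to Fos and Egr1 transcription gave 20 tested genes of 25, with 7 positive and 13 negative differences and a median of -0.03. Limma called 0 of them, where 1.76% of all genes were called. At an unadjusted p under 0.05, which 14.7% of all genes passed, there was 1. This was Dusp6, a phosphatase of ERK that ERK signalling induces, at 0.25 (SE 0.10, adjusted p = 0.290). Spry4, another feedback inhibitor, had 0.32 (adjusted p = 0.414). Srf itself had -0.10 and Elk1, a partner of SRF, -0.02 (adjusted p = 0.511 and 0.969).

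Known AP-1 targets gave 15 tested genes of 25, with 10 positive and 5 negative differences and a median of 0.08. Of these genes 2 were called, both higher, where 1.39% of all genes were called higher. At an unadjusted p under 0.05 there were 4, Timp1, Cd44 and Nppa higher and Ccl2 lower, where 14.7% of all genes passed. The genotypes did not overlap for 5 genes with mutants higher and for 1, Ccl2, with mutants lower. Of all genes 11.5% and 9.76% did so in these directions. Timp1, an inhibitor of matrix metalloproteinases, read 8.78, 8.75 and 8.54 in mutants and 8.16, 7.99 and 7.998 in WT, a rise of 0.64 (SE 0.10, limma adjusted p = 0.0217). Cd44, the hyaluronan receptor, read 11.03, 11.13 and 10.88 in mutants and 10.57, 10.62 and 10.43 in WT, a rise of 0.47 (SE 0.08, adjusted p = 0.0295). Its other 2 probe sets above the filter had larger differences, 0.63 and 0.76. The Timp1 call was lost in 6 of 15 other settings and that of Cd44 in 8, including fits without mutant replicate 1 or 2 or WT replicate 2 or 3 for both genes (adjusted p up to 0.155). These targets have many other regulators. Ccl2, a monocyte chemokine with the largest fall of the list in means, had -0.46 and did not pass (adjusted p = 0.171), and was picked after its values were seen.

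Heat shock genes, which also respond to handling, gave 13 tested of 15. Limma called 0, where 1.76% of all genes were called, and 2 had an unadjusted p under 0.05, where 14.7% of all genes did. Differences were positive for 6 and negative for 7, with a median of 0.00. Hspb8, a small chaperone abundant in heart, had 0.37 (SE 0.08, adjusted p = 0.0514) and Cryab, another, 0.18 (adjusted p = 0.108). The summed intensity of the list was 45468 to 47425 in mutants and 44980 to 46350 in WT.

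Hearts are a mixture, and in bulk tissue more cells of a type and more RNA per cell cannot be told apart. Cardiomyocyte markers were bright on every array, 12 of 12 above the filter, with summed intensities of 102694 to 105733 in mutants and 98657 to 102480 in WT. Beside the rise of Fosl2, Cebpd, Timp1 and Cd44, epicardial and mesothelial markers were higher in sum on every mutant array than on any WT array. The same held for the sums of cardiomyocyte, endothelial, and macrophage and leukocyte markers. The 12 epicardial and mesothelial markers summed to 8938 to 9744 in mutants and 7305 to 7561 in WT. Of them 7 were called higher, where 1.39% of all genes were, Muc16 among them with a WT mean under the filter level. Of the 12 differences 8 were positive and 4 negative: the retinoic acid enzyme Aldh1a2 and the transcription factors Tbx18, Tcf21 and Wt1 had differences of -0.22, -0.11, -0.09 and -0.06 and were not called (adjusted p = 0.284 to 0.919). The 9 endothelial markers summed to 11567 to 12125 in mutants and 10329 to 11252 in WT (1 called). This was Vwf, with 0.92 (limma adjusted p = 0.0123). The 11 macrophage and leukocyte markers, 9 of them tested, summed to 3182 to 3282 in mutants and 2486 to 3048 in WT (0 called by limma). At an unadjusted p under 0.05 there were 3 of the 9 macrophage, 3 of the 9 endothelial, 3 of the 12 cardiomyocyte and 9 of the 12 epicardial markers. Mutants were higher without overlap for 3 macrophage, 4 endothelial, 3 cardiomyocyte and 8 epicardial markers, where 11.5% of all genes were. They were lower without overlap for 1 endothelial marker, where 9.76% of all genes were. The sums of the 8 fibroblast markers overlapped, at 41237 to 43735 in mutants and 39551 to 41901 in WT. Those of the 7 smooth muscle markers overlapped too, at 14459 to 15667 in mutants and 14375 to 14724 in WT. Limma called 0 of either list. Taken singly, 3 of 8 tested fibroblast and 1 of 6 tested smooth muscle markers did not overlap, with mutants higher. Of all genes 11.5% did so. These 3 and 1 also had an unadjusted p under 0.05, where 14.7% of all genes passed. The part of these cells in the differences of the factors was not tested.

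Lung and airway markers summed to 823, 364 and 3631 in mutant replicates 1, 2 and 3 and to 351 to 487 in WT, and 5 of 9 markers, Nkx2-1 and Foxj1 among them, were under the filter level on every array. Scgb3a2 read 9.03, 4.87 and 11.36 in mutants and 4.83, 4.81 and 5.40 in WT. Sftpc read 6.17, 5.80 and 9.43 in mutants and 6.07, 5.86 and 6.53 in WT. Both had WT means under the filter level and entered the test through the mutants. Sftpb and Scgb3a1 had -0.14 and 0.0014. Limma called 0 of these 4, where 1.76% of all genes were called. The part of such tissue in the differences of the factors was not tested. Thymus markers summed to 193 to 229 in mutants and 207 to 282 in WT, with 6 of 7 under the filter level on every array.

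Median intensities were 77.5 to 78.4 on the mutant arrays and 77.4 to 84.1 on the WT arrays. The 18S control probe sets averaged an intensity of 822, 631 and 1051 on mutant replicates 1, 2 and 3. On WT replicates 1, 2 and 3 they averaged 969, 429 and 411. The part of this in the differences was not tested. Over the tested genes arrays correlated at 0.990 to 0.995 within mutants, 0.982 to 0.986 within WT and 0.972 to 0.990 between genotypes. On the first principal component (44.5% of the variance) WT replicate 1 lay at 1.08, between the mutants (-13.1 to -8.55) and the other WT arrays (11.2 and 21.1). Without it 448 genes were called, against 196 with all arrays, and Fosl2 was again the 1 factor called.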

How the data were processed

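RNA of 6 whole-heart samples was measured on 1-colour Affymetrix arrays, from 3 µg of total RNA per sample per the labels' protocols. The authors deposited linear probe set intensity values already scaled between arrays, as their medians show (within 0.12 log2 units). The sources used here name no software, normalization or detection call, so depth has no equivalent and the number of arrays limits precision. Gene symbols came from the platform annotation: 34945 probe sets carried 1 symbol, 932 several and 9160 none, beside 64 controls. Only the first kind was used.

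Intensities were floored at 1 and log2-transformed. Of 18193 genes, each read by its brightest probe set, 7080 at or under the filter level were left out. Genotypes were compared with limma 3.58.1 (R 4.3.3; lmFit and eBayes with an intensity trend, two-sided), adjusted by Benjamini-Hochberg over 11113 genes, and every non-control probe set was fitted the same way. The fit was checked on simulated arrays. An exact permutation test of 3 against 3 arrays cannot go below p = 0.10 and was not used. Alternatives covered scaling, offset, filter, probe sets, variance model, replicate block and each array left out. At most 46 probe sets had identical values on any pair of arrays.

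Named were the 10 genes, the called genes and the 2 with the smallest p of each related list, and the 5 genes most like Fos and each called factor. Members and lists were chosen with earlier results of these data known. Figures were drawn with matplotlib 3.10.9.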

Additional observations from a re-analysis of the deposited data

How the results depend on the processing

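The number of called factors was 1 with all arrays and stayed 1 (Fosl2) with quantile normalization, median centring, an offset of 16, no intensity trend, array quality weights, the replicate block and without WT replicate 1. It was 0 by limma with no filter, with the mean of probe sets and with every probe set as a feature, and 0 to 1 with 1 array left out (0.54 to 0.66 for the Fosl2 difference). Fosl2 had 0.62 with no filter (adjusted p = 0.0564) and with every probe set as a feature (adjusted p = 0.0827), where more features were tested, and 0.11 with the mean of probe sets, where the dimmer probe set enters. Over its 15 alternatives its adjusted p ran from 0.0162 to 0.692. Fos, Jun, Egr1, Atf3 and Ier2 kept their sign and stayed uncalled in 15 of 15 alternatives each, but sizes moved with 1 array left out: 0.15 to 0.40 for Fos (lowest without WT replicate 1), -0.22 to -0.07 for Jun (nearest 0 without WT replicate 3), 0.25 to 0.44 for Egr1, -0.26 to -0.13 for Atf3 and 0.0084 to 0.12 for Ier2 (lowest without mutant replicate 2, highest without mutant replicate 3). Jund turned to 0.024 with median centring, 0.038 with array quality weights, and 0.037 and 0.0092 without mutant replicate 3 and WT replicate 1 (-0.069 to 0.037 with 1 array left out); the cause was not tested.

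Over all genes 196 were called, against 81 with no filter, 125 with the mean of probe sets, 53 probe sets with every probe set as a feature, 119 with no intensity trend, 429 with array quality weights and 30 to 448 with 1 array left out, lowest without mutant replicate 1 and highest without WT replicate 1. Same-numbered samples deviated together at -0.06, 0.13 and 0.41 for numbers 1, 2 and 3. Samples of different numbers were not compared in this way, so these values cannot show whether the numbers pair the samples. With the replicate number as a block 234 genes were called, and Fosl2 had 0.62 (adjusted p = 0.0316) and remained the 1 called factor. The settings for Cebpd, Timp1 and Cd44 were added after seeing the data. Without detection calls, genes near the filter level cannot be told from background.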
